A study of Mus musculus with 8 samples.

Results

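The 39 genes described here encode the machinery of the mitotic cell cycle and of DNA replication. They were chosen by name, as the non-control probes whose gene name in the array files is one of 39 listed symbols, and they fall into 7 roles: mitotic entry and its kinases (8 genes), spindle, kinetochore and checkpoint (10), mitotic exit (2), chromosome structure and Ki-67 (2), G1/S cyclins and E2F factors (4), origin licensing (9), and replication fork and nucleotide supply (4). All 39 symbols were present, on 53 of the 55661 probes analysed. A gene was tested if 2 or more of the 8 arrays read its probe well above background. This left 38 of the 39 genes among 23227 features, and each of the 38 was well above background on 8 of 8 arrays. Ccne2, the gene of cyclin E2, was well above background on 0 of 8 arrays and has no value here.

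RNA was measured on single-colour arrays in cells sorted from bone marrow at 6 weeks of age, with 2 arrays in each of 4 groups. KSL cells, sorted for c-Kit and Sca-1 and for lack of lineage markers, are the fraction that holds haematopoietic stem and early progenitor cells. Gr cells (Gr-1+/Mac-1+) include granulocytes and their precursors. Both fractions were taken from controls and from Vav-Etv2 animals, which carry an Etv2 transgene switched on by a Vav-iCre transgene. The Vav promoter is used to drive Cre throughout the blood lineage, so the transgene is not aimed at either fraction alone, and all groups share the same mixed strain, given as B6/CBA and others. The labels do not say whether the control mice carried either transgene, or whether the arrays of a group are separate mice or pools, so p-values here measure only the spread between these samples.

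The cell cycle is run by cyclin-dependent kinases and by waves of transcription. In G1, Cdc6 and Cdt1 load the Mcm2 to Mcm7 helicase onto replication origins, which licenses them to fire once, and geminin (Gmnn) blocks reloading later in the cycle. Licensing and S-phase genes are classical targets of E2F factors, which bind motifs close to the start site and are held back by the retinoblastoma family. Mitotic genes peak later and are controlled through CCAAT boxes and the cell cycle genes homology region (CHR), the element bound by the MuvB complex. In bone marrow, many early progenitors and granulocyte precursors divide, whereas mature granulocytes have left the cycle.

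The promoters shown are those of the 7 genes that differed between KSL and Gr cells past the threshold, whichever of these elements they carry. Each run covers 170 bases before the start site and the first 30 bases after it, in the direction of transcription, from RefSeq on GRCm38.p6. Capitals mark matches, on either strand, to TTTGAA (CHR), to CCAAT, or to 1 of 4 E2F sequences (TTTCCCGC, TTTCGCGC, TTTGCCGC, TTTGGCGC). The first 3 genes act in mitosis and the other 4 encode subunits of the Mcm helicase.
Ccnb2 (chr9:70421525-70421724, minus strand): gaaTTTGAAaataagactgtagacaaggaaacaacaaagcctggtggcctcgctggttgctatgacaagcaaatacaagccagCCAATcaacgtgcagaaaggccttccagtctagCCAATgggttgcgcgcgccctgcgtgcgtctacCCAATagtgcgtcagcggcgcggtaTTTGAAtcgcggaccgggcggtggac
Cenpa (chr5:30666716-30666915, plus strand): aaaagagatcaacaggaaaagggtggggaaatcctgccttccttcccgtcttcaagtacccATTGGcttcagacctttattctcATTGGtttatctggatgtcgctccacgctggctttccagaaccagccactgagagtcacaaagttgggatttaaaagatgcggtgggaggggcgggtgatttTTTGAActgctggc
Ube2c (chr2:164769759-164769958, plus strand): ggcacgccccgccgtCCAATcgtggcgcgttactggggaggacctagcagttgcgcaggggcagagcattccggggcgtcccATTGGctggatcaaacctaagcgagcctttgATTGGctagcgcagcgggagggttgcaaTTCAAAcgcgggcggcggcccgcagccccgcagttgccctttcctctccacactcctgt
Mcm2 (chr6:88898751-88898950, minus strand): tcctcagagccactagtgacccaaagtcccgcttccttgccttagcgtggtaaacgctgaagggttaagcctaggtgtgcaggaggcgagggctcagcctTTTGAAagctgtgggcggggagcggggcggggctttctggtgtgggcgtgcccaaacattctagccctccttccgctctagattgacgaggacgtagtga
Mcm3 (chr1:20820283-20820482, minus strand): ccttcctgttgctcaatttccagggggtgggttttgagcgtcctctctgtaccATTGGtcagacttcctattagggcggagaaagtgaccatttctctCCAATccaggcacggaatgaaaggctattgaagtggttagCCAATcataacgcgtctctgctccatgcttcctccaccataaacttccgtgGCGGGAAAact
Mcm6 (chr1:128359676-128359875, minus strand): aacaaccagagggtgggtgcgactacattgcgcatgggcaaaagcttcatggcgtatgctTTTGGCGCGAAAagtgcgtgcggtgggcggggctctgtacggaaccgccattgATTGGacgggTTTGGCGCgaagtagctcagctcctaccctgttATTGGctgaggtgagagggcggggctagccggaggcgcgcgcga
Mcm7 (chr5:138171854-138172053, minus strand): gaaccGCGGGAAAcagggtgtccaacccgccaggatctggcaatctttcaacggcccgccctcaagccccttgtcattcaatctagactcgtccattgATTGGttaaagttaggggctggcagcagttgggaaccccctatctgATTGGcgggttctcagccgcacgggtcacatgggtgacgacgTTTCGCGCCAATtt

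The 3 mitotic promoters hold 1 or 2 CHR matches and 2 or 3 CCAAT matches and no E2F match in these stretches. Those of Mcm3, Mcm6 and Mcm7 hold 1, 3 and 2 E2F matches and no CHR match, while that of Mcm2 holds a CHR match and no E2F match. In Mcm6, 2 of the E2F matches overlap each other, and in Mcm7 the match after the start site overlaps a CCAAT match. Over full windows of 300 bases (250 before the start and 50 after), 31 of the 39 genes have a RefSeq entry, the first window being taken for the 1 gene with several. An E2F match was found in 6 of 7 origin licensing genes, 1 of 17 mitosis genes (the first 4 roles) and 0 of 4 fork and nucleotide genes, against 2.32% of 27025 promoters. A CHR match was found in 12 of 17 mitosis genes and 1 of 7 licensing genes, against 18.1% of all promoters. A CCAAT match was found in 15 of 17 mitosis genes and 5 of 7 licensing genes, against 37.9%. Genes of the same pathways that were not among the 39 gave 8 of 36 with an E2F match for replication and 31 of 47 with a CHR match for mitosis. These are matches of letters, not measured sites.

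Levels are log2 intensities relative to the 75th percentile of each array, so 0 is the intensity that 75% of probes lie below, and a difference of 1 is a doubling of intensity. Where an SE follows a difference, it is the standard error from the limma model fitted to all 8 arrays (for a second probe, from the same model over single probes), and a gene is called where its p, adjusted by Benjamini-Hochberg over all 23227 features, is under 0.05. The 75th percentile ranged from 136 to 300 intensity units, and the share of probes well above background from 47.7% to 55.5%, with 0 saturated. Marker levels mostly followed the sorting: 9 of 10 stem and progenitor markers were higher in KSL cells, Kit by 2.71 and Cd34 by 6.11, and all 11 measured late granulocyte markers read lower in KSL cells. The 8 monocyte and macrophage markers all read lower in KSL cells as well, with a median KSL minus Gr difference of -2.24. Granulocyte RNA was still present in KSL arrays. S100a9, a late granulocyte marker, stood at 9.69 and 9.48 in KSL controls and 6.04 and 9.60 in KSL Vav-Etv2 cells. It overlapped with Gr replicate 2, at 9.59 and 9.65. For 10 of the 11 late markers all KSL arrays lay below all Gr arrays. Of 7 early granulocyte markers 5 read lower in KSL cells, and Mpo and Ctsg read higher (1.05 and 1.17, not called). Ly6a, the gene of Sca-1, went against the label with a KSL minus Gr difference of -2.22. In Gr cells Slamf1 and Mecom were well above background on 0 arrays of either genotype. Etv2 stood at -4.37 and -4.73 in KSL controls and at 0.19 and -1.24 in KSL Vav-Etv2 cells. The array labelled Gr control 2 went against its label, reading -0.54 for Etv2 against -4.48 in Gr control 1 and -0.55 and -1.29 in Gr Vav-Etv2 cells, and is counted below as labelled. All KSL arrays lay on 1 row of the slide and all Gr arrays on another, so cell type and slide row cannot be told apart.

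A split by replicate number runs through the Gr arrays and bears on all that follows. Xist, the RNA of the inactive X chromosome, stood at 0.27 and 0.35 in replicate 1 of Gr control and Gr Vav-Etv2 cells and at -7.10 and -6.82 in replicate 2, while the Y-linked Ddx3y stood at 1.39 and 1.36 in replicate 2 only. The labels give no sex. All 4 KSL arrays read Xist between 2.12 and 2.69. Of 7 early granulocyte genes, which mark promyelocytes, 6 were higher in Gr replicate 2 than in replicate 1 in both genotypes. The medians of the 7 were 2.30 (controls) and 1.89 (Vav-Etv2), and Cebpe went the other way at -1.11 and -0.65. Late granulocyte genes differed the other way, by medians of -1.20 and -1.16. Of 6 mast cell and basophil genes 5 were higher in replicate 2 in both genotypes (medians of the 6, 3.22 and 4.49), and Tpsb2 was lower (-0.50 and -0.87). In bulk RNA, fewer cells of a type and less RNA per cell cannot be told apart.

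**Figure D1:**
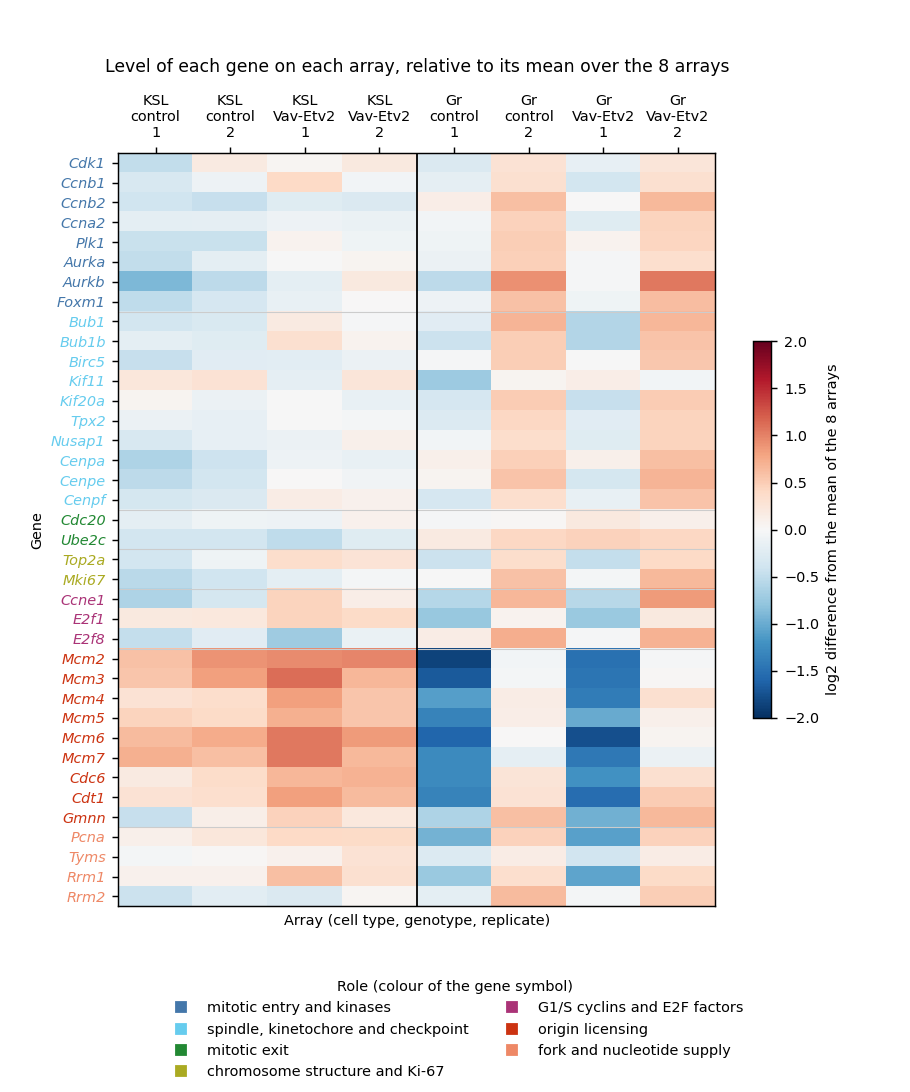
Log2 level of each of the 38 genes (rows, grouped by role) on each of the 8 arrays (columns), as the difference from the gene's mean over the 8 arrays. The origin licensing rows are lowest in both Gr replicate 1 arrays and most mitosis rows are highest in both Gr replicate 2 arrays.

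KSL cells held more RNA of 4 subunits of the Mcm helicase than Gr cells did, between 2.83-fold and 3.27-fold, and less RNA of 3 genes that act in mitosis. Mcm2, Mcm3, Mcm6 and Mcm7 were called higher in KSL cells, and Ccnb2, Cenpa and Ube2c were called lower. The comparison set the 4 KSL arrays against the 4 Gr arrays, averaged over genotypes. Of all features, 50.7% were called in this comparison, 24.2% as higher in KSL cells and 26.5% as lower, so the 7 called of 38 are a smaller share than the background. The remaining 5 licensing genes lay above 0 too and were not called, and the median difference of the 9 was 1.05, against a median of -0.14 over all features, of which 45.5% lay above 0. The 22 mitosis genes had a median of -0.28, with 20 of 22 below 0.

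The Mcm genes encode the ring-shaped helicase that unwinds DNA at the fork. Mcm2 stood at 4.20 and 4.52 in KSL controls, 4.57 and 4.59 in KSL Vav-Etv2 cells, 1.77 and 3.57 in Gr controls and 2.12 and 3.60 in Gr Vav-Etv2 cells. The 4 KSL values all lay above the 4 Gr values, and both Gr replicate 1 arrays were the lowest. The difference was 1.71 (SE 0.49, 3.27-fold, limma adjusted p = 0.0248). The Mcm2 probe lies at chr6:88833619-88833678 on mm9, the build of the files.

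Mcm6 (chr1:130228178-130228237) stood at 7.24 and 7.36 in KSL controls and 7.66 and 7.46 in KSL Vav-Etv2 cells, against 5.03 and 6.62 in Gr controls and 4.85 and 6.67 in Gr Vav-Etv2 cells. It was 3.11-fold higher in KSL cells (difference 1.64 with SE 0.50, limma adjusted p = 0.032). The KSL arrays lay close together, and the Gr arrays split by replicate number.

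For Mcm3 (chr1:20793136-20793195) the KSL values were 6.05 and 6.32 in controls and 6.61 and 6.15 in Vav-Etv2 cells, and the Gr values 3.81 and 5.45 in controls and 4.03 and 5.52 in Vav-Etv2 cells. The groups did not overlap (difference 1.58, SE 0.47, limma adjusted p = 0.0299), and a second Mcm3 probe gave 1.65. Mcm7 (chr5:138605925-138605984) had the smallest error of the 4. Its levels were 6.16 and 6.05 in KSL controls, 6.50 and 6.10 in KSL Vav-Etv2 cells, 4.17 and 5.27 in Gr controls and 4.02 and 5.34 in Gr Vav-Etv2 cells, a difference of 1.50 (SE 0.38, limma adjusted p = 0.0172). All 4 KSL arrays lay above all 4 Gr arrays for 5 of the 9 licensing genes, these 4 and Mcm5, compared with 25.5% of all features.

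Mcm4 and Mcm5, the remaining subunits of the ring, differed by 1.01 (SE 0.45) and 1.05 (SE 0.40) with limma adjusted p of 0.0999 and 0.0638, and were not called. The loading factors Cdc6 and Cdt1 differed by 0.95 (SE 0.46) and 1.03 (SE 0.53) and were not called either. The smallest difference of the role was that of Gmnn, the Cdt1 inhibitor. It stood at 1.34 and 1.92 in KSL controls, 2.26 and 2.02 in KSL Vav-Etv2 cells, 1.19 and 2.40 in Gr controls and 0.85 and 2.45 in Gr Vav-Etv2 cells (difference 0.16, SE 0.44), so the highest values of all came from Gr replicate 2. A second probe carrying the name Gmnn lies on the opposite strand, further along chromosome 13, and was called higher in KSL cells (2.59, SE 0.44, limma adjusted p = 0.00383), so the names alone do not settle which transcript each probe reads.

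Genes of the replication fork showed smaller differences. Pcna, the sliding clamp, stood at 6.05 and 6.18 in KSL controls, 6.34 and 6.33 in KSL Vav-Etv2 cells, 5.00 and 6.41 in Gr controls and 4.86 and 6.40 in Gr Vav-Etv2 cells. The difference of 0.56 (SE 0.44) was not called, and Gr replicate 2 reached the KSL level. The subunits of ribonucleotide reductase, which makes deoxynucleotides, lay on opposite sides of 0. Rrm1, the large subunit, stood at 4.11 and 4.11 in KSL controls, 4.63 and 4.35 in KSL Vav-Etv2 cells, 3.28 and 4.36 in Gr controls and 2.97 and 4.41 in Gr Vav-Etv2 cells (difference 0.54, SE 0.39). Rrm2, the small subunit that is made in S phase, stood at 4.75 and 4.98 in KSL controls, 4.90 and 5.22 in KSL Vav-Etv2 cells, 4.99 and 5.82 in Gr controls and 5.14 and 5.67 in Gr Vav-Etv2 cells (difference -0.44, SE 0.27). Neither difference passed the threshold. Tyms, which makes thymidylate, stood at -1.53 and -1.46 in KSL controls, -1.40 and -1.19 in KSL Vav-Etv2 cells, -1.75 and -1.33 in Gr controls and -1.87 and -1.34 in Gr Vav-Etv2 cells (difference 0.18, SE 0.22).

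**Figure D2:**
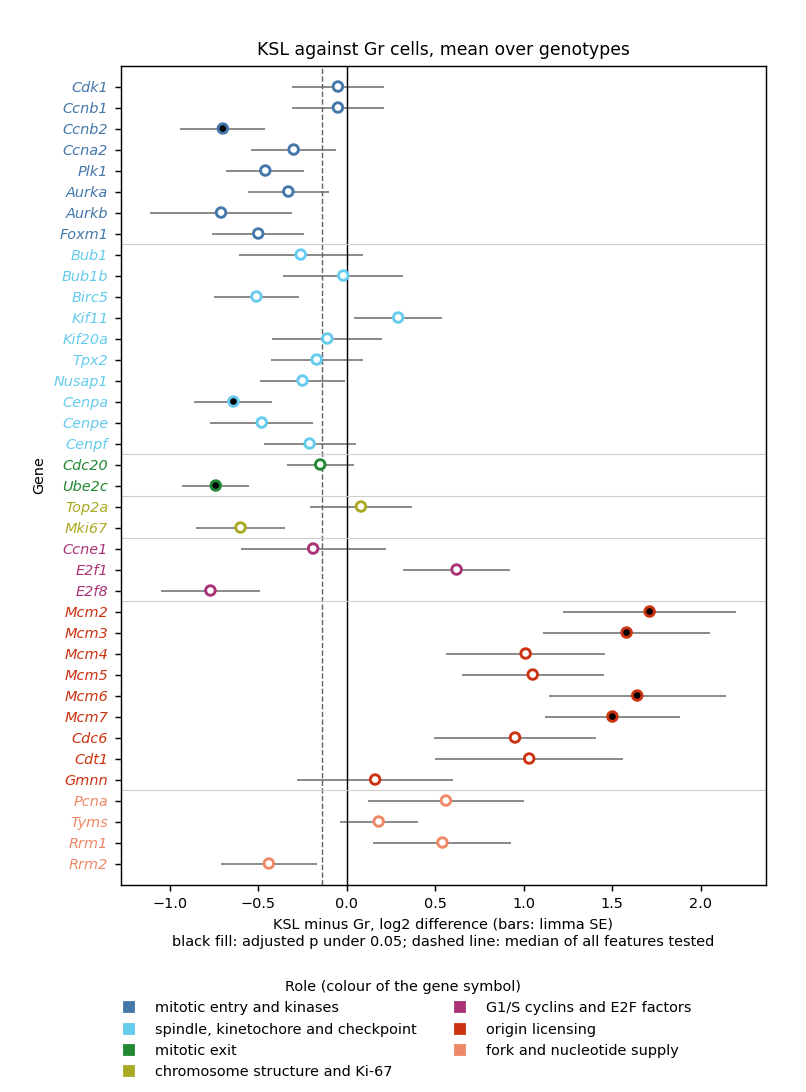
KSL minus Gr log2 difference (horizontal axis, mean over genotypes, 4 arrays against 4) with its limma SE for each of the 38 genes, black where called. The 9 origin licensing genes all lie to the right of 0, from 0.16 to 1.71, and 20 of the 22 mitosis genes lie to the left of it.

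Among the G1/S regulators, no gene was called. E2f1, an activator of S-phase genes, stood at 2.81 and 2.82 in KSL controls and 3.05 and 2.99 in KSL Vav-Etv2 cells, against 1.85 and 2.67 in Gr controls and 1.87 and 2.80 in Gr Vav-Etv2 cells. Every KSL array lay above every Gr array, but the difference of 0.62 (SE 0.30) had a limma adjusted p of 0.124. E2f8, an E2F factor that represses the same genes, lay the other way. Its levels were 2.95 and 3.19 in KSL controls, 2.71 and 3.29 in KSL Vav-Etv2 cells, 3.57 and 4.14 in Gr controls and 3.39 and 4.12 in Gr Vav-Etv2 cells (difference -0.77, SE 0.28, limma adjusted p = 0.0566). Ccne1, cyclin E1, the activator of Cdk2 at the start of S phase, stood at 2.31 and 2.57 in KSL controls, 3.37 and 3.05 in KSL Vav-Etv2 cells, 2.35 and 3.59 in Gr controls and 2.36 and 3.77 in Gr Vav-Etv2 cells. Its groups overlapped (difference -0.19, SE 0.41), with Gr replicate 2 the highest.

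The 22 mitosis genes leaned towards Gr cells in this scaling, with a median of -0.28 against -0.14 over all features. With quantile normalisation their median was 0.03. Of the 22, 3 were called lower in KSL cells, a smaller share than the 26.5% of all features. Ccnb2, cyclin B2, a partner of Cdk1 (chr9:70255671-70255730), stood at 5.10 and 5.03 in KSL controls, 5.26 and 5.20 in KSL Vav-Etv2 cells, 5.62 and 6.10 in Gr controls and 5.50 and 6.15 in Gr Vav-Etv2 cells. All 4 KSL arrays were below all 4 Gr arrays (difference -0.70, SE 0.24, limma adjusted p = 0.046). That order held for 6 of the 38 genes, compared with 28.7% of all features. Aurkb, the kinase of the chromosomal passenger complex, stood at -3.51 and -3.14 in KSL controls, -2.80 and -2.41 in KSL Vav-Etv2 cells, -3.13 and -1.70 in Gr controls and -2.64 and -1.55 in Gr Vav-Etv2 cells. Its difference of -0.71 (SE 0.40) was not called, and both Gr replicate 2 arrays were the highest. Foxm1, a transcription factor of G2 and M genes, stood at 1.61 and 1.78 in KSL controls, 1.97 and 2.12 in KSL Vav-Etv2 cells, 2.02 and 2.70 in Gr controls and 2.03 and 2.73 in Gr Vav-Etv2 cells (difference -0.50, SE 0.26, limma adjusted p = 0.154). Cdk1, the mitotic kinase itself, showed next to no difference (-0.05, SE 0.26), with 2.57 and 3.25 in KSL controls, 3.10 and 3.26 in KSL Vav-Etv2 cells, 2.78 and 3.36 in Gr controls and 2.91 and 3.31 in Gr Vav-Etv2 cells.

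Of the spindle, kinetochore and checkpoint genes, only Cenpa was called. Cenpa, the histone H3 variant that marks centromeres (chr5:30974916-30975386), stood at 3.29 and 3.50 in KSL controls, 3.81 and 3.77 in KSL Vav-Etv2 cells, 4.01 and 4.39 in Gr controls and 4.01 and 4.51 in Gr Vav-Etv2 cells (difference -0.64, SE 0.22, limma adjusted p = 0.048). The groups did not overlap. Birc5 (survivin, a passenger complex subunit) stood at 5.77 and 6.01 in KSL controls, 6.02 and 6.12 in KSL Vav-Etv2 cells, 6.21 and 6.73 in Gr controls and 6.23 and 6.78 in Gr Vav-Etv2 cells (difference -0.51, SE 0.24). It was not called, although its KSL arrays lay below its Gr arrays. Cenpe, a kinetochore motor, stood at 3.86 and 4.01 in KSL controls, 4.38 and 4.31 in KSL Vav-Etv2 cells, 4.44 and 4.95 in Gr controls and 4.03 and 5.06 in Gr Vav-Etv2 cells (difference -0.48, SE 0.29, not called). Bub1b, the checkpoint protein BubR1, had the smallest difference, -0.02 (SE 0.34), at 1.98 and 1.93 in KSL controls, 2.50 and 2.24 in KSL Vav-Etv2 cells, 1.74 and 2.66 in Gr controls and 1.59 and 2.75 in Gr Vav-Etv2 cells. Its KSL values lay between those of the Gr replicates. Kif11, the motor that separates spindle poles, was the gene of this role that lay above 0 (0.29, SE 0.25, not called).

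The mitotic exit genes varied little within each cell type. Ube2c, the ubiquitin-conjugating enzyme of the anaphase-promoting complex (chr2:164598016-164598075), stood at 4.27 and 4.27 in KSL controls, 4.12 and 4.40 in KSL Vav-Etv2 cells, 4.82 and 5.05 in Gr controls and 5.10 and 5.05 in Gr Vav-Etv2 cells. Here the Gr replicates lay close together, and the KSL arrays lay below the Gr arrays (difference -0.74, SE 0.19, 1.67-fold lower, limma adjusted p = 0.0178); a second probe gave -0.83. Cdc20, an activator of the same complex, stood at 5.27 and 5.39 in KSL controls, 5.37 and 5.56 in KSL Vav-Etv2 cells, 5.44 and 5.50 in Gr controls and 5.66 and 5.57 in Gr Vav-Etv2 cells and was not called (difference -0.15, SE 0.19).

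The chromosome genes were not called. Mki67, the proliferation antigen Ki-67, stood at 6.06 and 6.20 in KSL controls, 6.41 and 6.56 in KSL Vav-Etv2 cells, 6.60 and 7.19 in Gr controls and 6.57 and 7.26 in Gr Vav-Etv2 cells (difference -0.60, SE 0.25, limma adjusted p = 0.0886). Its 4 KSL arrays lay below its 4 Gr arrays without the call. Top2a, topoisomerase II alpha, which untangles DNA, stood at 3.64 and 3.93 in KSL controls, 4.36 and 4.29 in KSL Vav-Etv2 cells, 3.58 and 4.37 in Gr controls and 3.54 and 4.41 in Gr Vav-Etv2 cells (difference 0.08, SE 0.29), with overlapping groups.

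The lean of the mitosis genes depended on the scaling between arrays, whereas 12 of the 13 replication genes lay above 0 under both other scalings. With quantile normalisation 11 of the 22 mitosis genes lay above 0 (median 0.03), Ccnb2, Cenpa and Ube2c lost their calls (limma adjusted p = 0.387, 0.326 and 0.191), and 7 of the 38 genes were called higher and 0 lower, against 26.3% and 26.8% of all features. With scaling to the array median, which moved the median of all features from -0.14 to -0.29, 2 were called higher and 1 lower, against 19% and 30.7% of all features, and the mitosis median was -0.43. Some fits without 1 array, which have fewer arrays to estimate the spread, lost calls, but no difference of the 7 genes changed sign. Mcm7 ranged from 1.17 to 1.83, Mcm2 from 1.26 to 2.16, Ube2c from -0.81 to -0.67 and Cenpa from -0.76 to -0.51. Without KSL control 1, KSL control 2 or KSL Vav-Etv2 1, 0 of the 38 genes were called, against 35.6%, 34.6% and 39.8% of all features. Without KSL Vav-Etv2 2 only Mcm7 and Ube2c were, against 39.2%. Without Gr control 1 the replication median was 0.62 and the mitosis median -0.45, against 1.01 and -0.28 with all arrays. Within control mice alone and within Vav-Etv2 mice alone 0 were called, against 34.7% and 24.2% of all features. The differences within controls and within Vav-Etv2 mice were 1.69 and 1.73 for Mcm2, -0.66 and -0.82 for Ube2c, and -0.81 and -0.47 for Cenpa. The mitosis median was -0.46 in controls, with 1 of 22 above 0, and -0.14 in Vav-Etv2 mice, with 5 of 22 above 0.

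The Gr replicates also differed from each other in these genes. In both genotypes, all 9 licensing genes were over 1 log2 unit higher in replicate 2 than in replicate 1, which held for 7.33% of all features. Their median difference between replicates was 1.53 in controls and 1.54 in Vav-Etv2 cells, while all features had medians of -0.15 and -0.10. For Cdt1 the 2 genotypes gave 1.63 (controls) and 2.03 (Vav-Etv2). The mitosis genes differed less, with medians of 0.58 and 0.68, and 19 of 22 were higher in replicate 2 in both genotypes, as were 34.8% of all features. Kif11, Cdc20 and Ube2c were the exceptions. The late granulocyte and sex-linked genes above, and most of the early granulocyte and mast cell genes, moved with the same split. All 9 B lineage markers read lower in replicate 2 in both genotypes (medians -1.23 and -2.82), as did 5 of 6 megakaryocyte markers (-1.44 and -1.20), 6 of 8 T and NK markers (-0.79 and -0.73) and 7 of 8 erythroid markers (-0.34 and -1.15). Of 8 monocyte and macrophage markers 5 read higher in replicate 2 in both genotypes (medians 0.15 and 0.35). Stem and progenitor markers were mixed, with 4 of 10 higher in replicate 2 in both genotypes (medians of the 10, 0.23 and -0.38). Cd34 was higher (1.52 and 0.77), and Ly6a was lower (-1.71 and -1.83). The part of any of these genes in the split was not tested.

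Set against each Gr replicate by itself, the KSL comparison changed in size. The median KSL minus Gr difference of the licensing genes was 1.95 against both replicate 1 arrays and 0.41 against both replicate 2 arrays. For the mitosis genes these medians were -0.04 and -0.58. Mcm2, Mcm3, Mcm6 and Mcm7 were called higher against either replicate, Mcm6 by 2.49 against replicate 1 and 0.78 against replicate 2 (limma adjusted p = 0.00155 and 0.0227). Ube2c was called lower against either, at -0.70 and -0.79 (limma adjusted p = 0.0248 and 0.0251). Of the 38 genes, 25 lay above 0 against replicate 1 and 10 against replicate 2, and Gmnn, Pcna, Rrm1 and Ccne1 were among those that changed side. Against replicate 1, 12 of the 38 genes were called higher and 1 lower, with 30.6% and 33% of all features. Against replicate 2, 4 were called higher and 17 lower, with 23.1% and 23.6% of all features. The 12 called higher are thus close to the background share. These fits were chosen after the split had been seen.

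**Figure D3:**
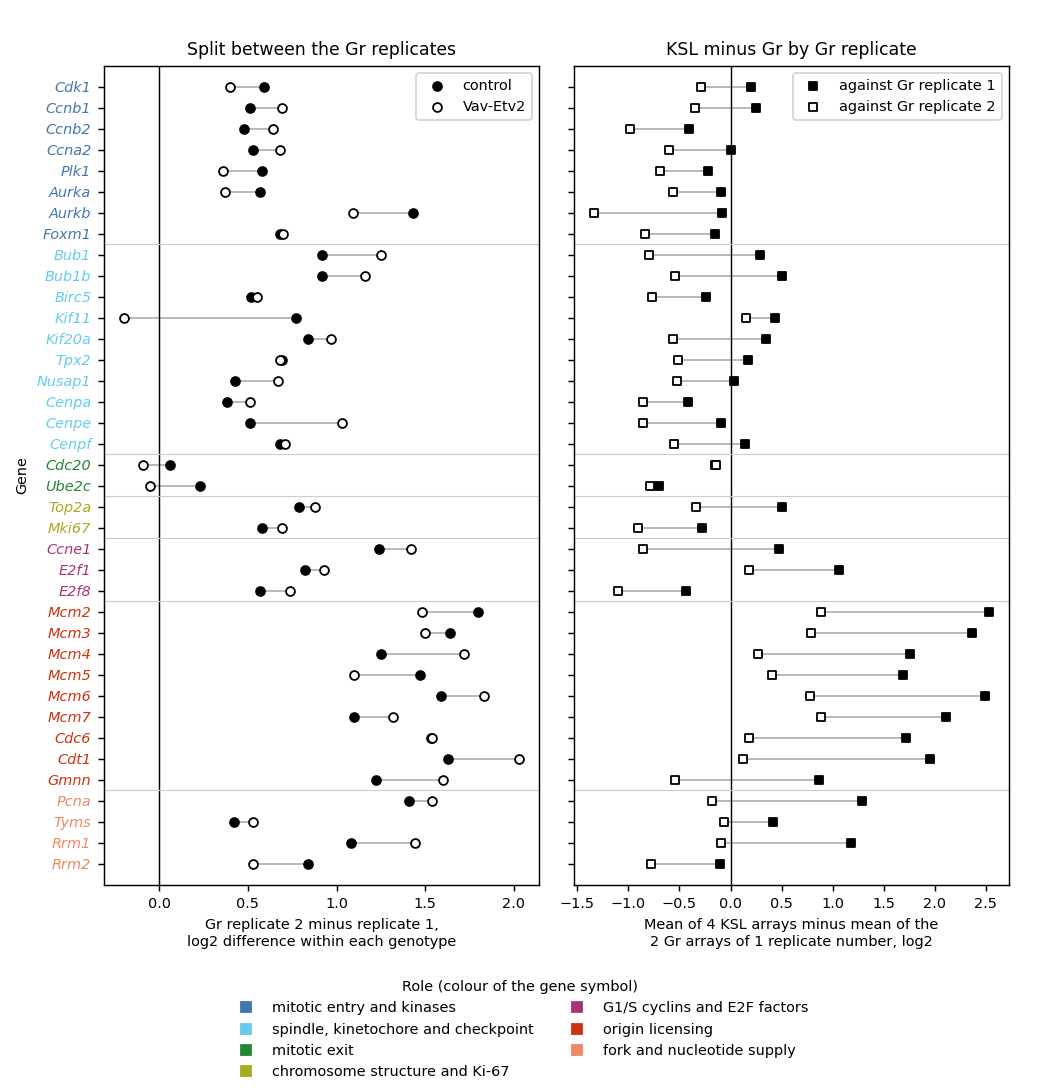
Left, Gr replicate 2 minus replicate 1 (log2) in control (filled) and Vav-Etv2 cells (open) for each gene. Right, the mean of the 4 KSL arrays minus the mean of both Gr arrays of replicate 1 (filled) or replicate 2 (open): the licensing genes have medians of 1.95 and 0.41, and the mitosis genes of -0.04 and -0.58.

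Other genes of the same pathways, named by list and not by how they moved, were tested in the same fit. Of 45 further replication genes (origin recognition, polymerases, clamp loader, nucleotide enzymes), 18 were called higher in KSL cells and 1 lower, with a median difference of 0.99 (24.2% and 26.5% of all features were called). The highest was Mcm8, an Mcm paralogue of repair, at 2.37 (SE 0.66). Asf1b, a histone chaperone, was the 1 called lower (-1.11, SE 0.25), and Cdc45, a helicase partner, came next at -0.58 (SE 0.41, not called). Of 53 further mitosis genes measured, 2 were called higher and 6 lower, with a median of -0.27. Cenpn and Cenph, centromere proteins, were the called-higher pair, both at 1.01 (SE 0.34 and 0.33), and Cdkn3, a phosphatase of cyclin-dependent kinases, and Racgap1, needed for cytokinesis, were lowest at -1.81 (SE 0.22) and -1.25 (SE 0.32). Against Gr replicate 1 and replicate 2 the further replication genes had medians of 1.68 and 0.34, and the further mitosis genes 0.14 and -0.53.

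Among 16 E2F, retinoblastoma and MuvB regulators, 3 were called higher in KSL cells and 4 lower, shares no larger than the 24.2% and 26.5% of all features. E2f2, an activator E2F, stood at 3.43 and 3.54 in KSL controls, 3.91 and 4.73 in KSL Vav-Etv2 cells, 6.86 and 6.63 in Gr controls and 6.86 and 6.50 in Gr Vav-Etv2 cells. It was called lower in KSL cells (-2.81, SE 0.25, limma adjusted p = 0.000439), and its Gr arrays did not split by replicate as the licensing genes did. Rb1, the retinoblastoma gene, was next at -1.41 (SE 0.19). Tfdp2, a partner of E2F factors, at 2.70 (SE 0.36) and E2f5, a repressor E2F, at 2.49 (SE 0.66) were the highest.

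The design also sets Vav-Etv2 mice against controls within each cell type, and in KSL cells no gene of the 38 was called. Of the 38, 34 had a higher mean in Vav-Etv2 than in control KSL cells, with a median difference of 0.27 against 0.00 over all features, of which 50.4% lay above 0. By limma 0 were called (smallest adjusted p 0.956) and 0 had an unadjusted p under 0.05, while 4 of all features (0.0172%) were called and 1725 (7.43%) had an unadjusted p under 0.05. Both Vav-Etv2 arrays lay above both control arrays for 29 of the 38 genes, as they did for 26.2% of all features, and below for 0, against 25.4%. A higher level of proliferation genes in these KSL arrays was known when the genes were chosen, and the genes share the same 4 arrays, so the counts are a description.

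The largest difference was that of Ccne1, at 2.31 and 2.57 in control and 3.37 and 3.05 in Vav-Etv2 KSL cells (0.77, SE 0.58, limma adjusted p = 0.968). A second Ccne1 probe gave 1.49 (SE 0.86, not called). Aurkb stood at -3.51 and -3.14 in control and -2.80 and -2.41 in Vav-Etv2 cells (0.72, SE 0.57). With another background correction (normexp) Aurkb differed by 0.24 only, while Ccne1 differed by 0.71. Top2a, with the values given above, differed by 0.54 (SE 0.42). In all 3 the Vav-Etv2 arrays lay above the control arrays. Ccnb1, cyclin B1, differed by 0.38 (SE 0.37) with the probe used for the gene and by 1.19 (SE 0.54) and 0.84 (SE 0.57) with its other probes, none called. Further probes of other genes lay below 0: Cdk1 at -0.51 (SE 0.38), Tpx2, a spindle assembly factor, at -0.45 (SE 0.38), Foxm1 at -0.12 (SE 0.64) and Gmnn at -0.07 (SE 0.63). Of the 11 genes with more than 1 probe, 5 had probes on both sides of 0. At the other end stood Kif11, at 2.32 and 2.38 in control and 1.91 and 2.34 in Vav-Etv2 KSL cells (-0.23, SE 0.35). E2f8 differed by -0.07 (SE 0.40). Kif20a, a cytokinesis motor, stood at 2.98 and 2.81 in control and 2.92 and 2.77 in Vav-Etv2 KSL cells (-0.05, SE 0.43). The arrays of the groups overlapped in each of these.

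By role, the medians in KSL cells were 0.36 for mitotic entry, 0.32 for spindle and kinetochore genes, 0.26 for licensing and 0.21 for fork and nucleotide genes. All 13 genes of the last 2 roles were above 0, between 0.19 and 0.50. The mitotic exit genes stood near 0, Cdc20 at 0.13 and Ube2c at -0.01. The direction was kept under median scaling (35 of 38 above 0), quantile normalisation (34) and without any 1 array (34 or 35). Of the further lists, 40 of 45 replication genes (median 0.20) and 45 of 53 mitosis genes (median 0.25) lay above 0, with 0 called in either. Cdc45 and Slbp, the histone stem-loop binding protein, were highest in the first at 1.05 and 0.91, and Dlgap5 and Pttg1 (securin), both of the spindle and chromosome separation, in the second at 1.02 and 0.98. The lowest were Chaf1b and Gins3, both at -0.30, in the first list and Kif15 at -0.22 and Ncapg at -0.20 in the second. Of the 16 E2F, retinoblastoma and MuvB regulators 9 lay above 0 (median 0.05, 0 called), with E2f2 and E2f5 highest at 0.83 and 0.72 and Rbl2 and Lin37 lowest at -0.87 and -0.57.

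**Figure D4:**
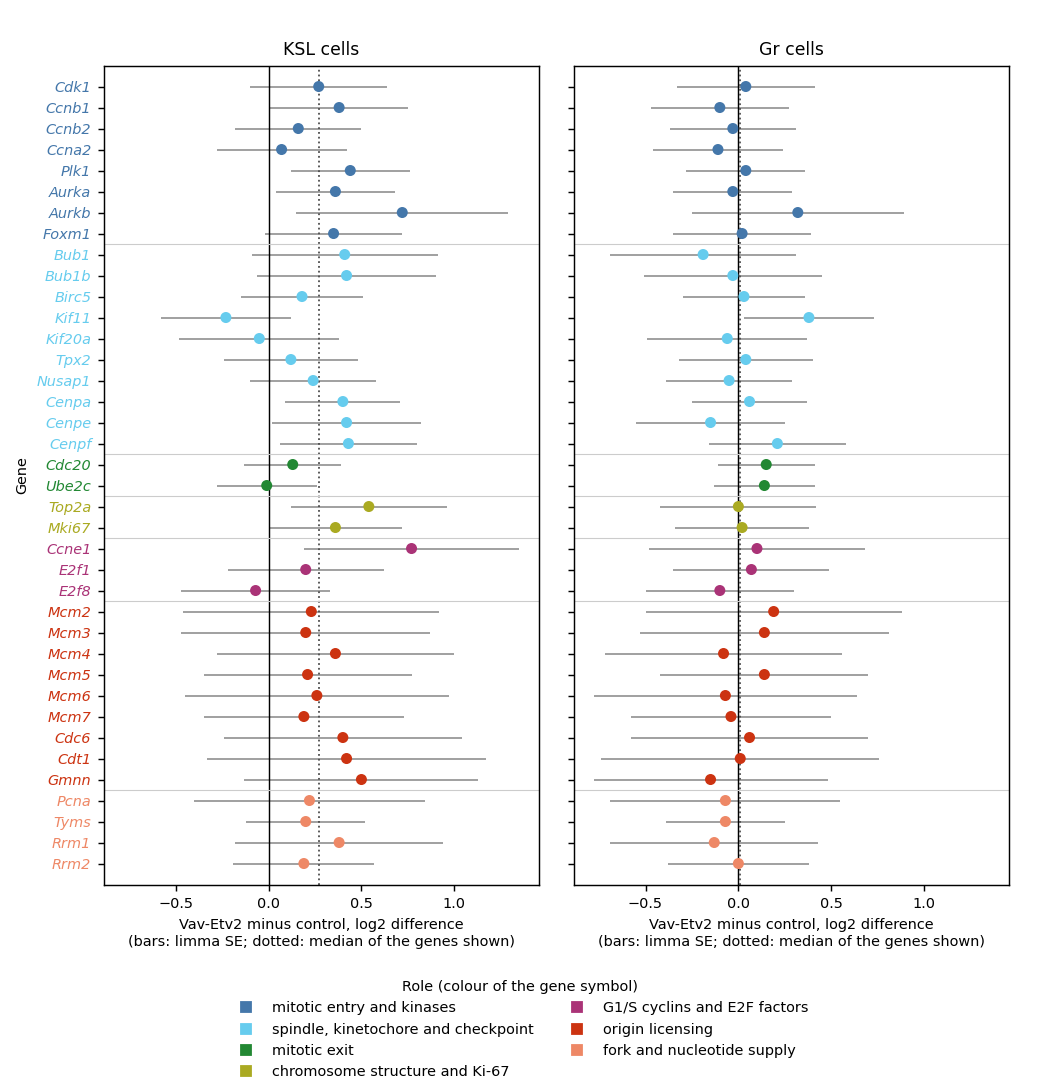
Vav-Etv2 minus control log2 difference with its limma SE for each of the 38 genes in KSL cells (left) and Gr cells (right), 2 arrays against 2. In KSL cells 34 of 38 lie above 0 (median 0.27) and in Gr cells 19 of 38 do (median 0.01).

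Markers of other cells differed over the same KSL arrays. All 9 B lineage markers had a higher mean in Vav-Etv2 KSL cells (median difference 2.70), and their summed level, in units of the array's 75th percentile, was 23.4 to 23.8 in controls and 72.2 to 104 in Vav-Etv2 cells. Pax5 was well above background in no control KSL array. Of the 10 stem and progenitor markers 9 read lower, with sums of 327 to 353 in controls and 256 to 272 in Vav-Etv2 cells. The sum of 11 late granulocyte markers was 1540 to 1630 in controls and 126 to 1650 in Vav-Etv2 cells, low in replicate 1 alone. Among 8 monocyte and macrophage markers 6 had both Vav-Etv2 arrays above both controls, with sums of 115 to 117 in controls and 73.6 to 145 in Vav-Etv2 cells. Of 8 T and NK markers 5 had both arrays below both controls, with sums of 8.39 to 9.32 and 4.73 to 6.18, and so had 5 of 8 erythroid markers, with sums of 52.8 to 54.7 and 31.3 to 38. The sum of 6 megakaryocyte markers was 71.9 to 84.1 in controls and 42.1 to 165 in Vav-Etv2 cells. For 6 mast cell and basophil markers it was 23.2 to 24.4 and 9.31 to 26.3, and for 7 early granulocyte markers 571 to 574 and 561 to 697. The part of any of these markers in the lean of the cell cycle genes was not tested. Without KSL Vav-Etv2 replicate 1, 34 of 38 genes lay above 0 with a median of 0.26.

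In Gr cells the genes showed no lean between the groups as labelled. Etv2 itself differed by 3.93 between Vav-Etv2 and control in replicate 1 and by -0.75 in replicate 2. Of the 38, 19 had a higher mean in Vav-Etv2 than in control Gr cells and 19 a lower one, with a median of 0.01; 48.5% of all features had a higher mean. By limma 0 were called and 0 had an unadjusted p under 0.05, against 2 of all features called (0.00861%) and 296 (1.27%) with an unadjusted p under 0.05. Kif11 had the highest difference, at 1.37 and 2.14 in control and 2.23 and 2.03 in Vav-Etv2 cells (0.38), and the arrays overlapped. Aurkb came next at 0.32, and Cenpf, a kinetochore protein, at 0.21, from -2.92 and -2.24 in control and -2.73 and -2.01 in Vav-Etv2 cells. With normexp background correction Aurkb differed by 0.09 and Cenpf by 0.08, while Kif11 differed by 0.33. The lowest was Bub1, a checkpoint kinase, at 1.53 and 2.44 in control and 1.17 and 2.42 in Vav-Etv2 cells (-0.19), followed by Gmnn (-0.15) and Cenpe (-0.15). The SEs of these 6 genes lay between 0.35 and 0.63, all larger than or close to the differences. Cdc20 and Ube2c were the genes whose Vav-Etv2 arrays both lay above both control arrays, 2 of 38 against 5.83% of all features, and for 0 genes both lay below, against 5.79%.

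This balance changed when 1 Gr array was left out, but each such fit sets unequal mixes of the replicate numbers against each other. In both genotypes 35 of the 38 genes were higher in Gr replicate 2, with medians of 0.78 (controls) and 0.81 (Vav-Etv2). The fits that follow therefore cannot separate genotype from replicate number. Without the array labelled Gr control 2, 38 of 38 genes lay above 0 (median 0.39), and without Gr control 1, 2 of 38 did (median -0.39). Without Gr Vav-Etv2 1, 38 of 38 lay above 0 (median 0.40), and without Gr Vav-Etv2 2, 3 of 38 (median -0.43). Within replicate 1 the median Vav-Etv2 minus control difference was -0.02. Within replicate 2, where the Etv2 level did not follow the labels, it was 0.05. The difference between the KSL and Gr effects was above 0 for 35 of 38 genes (median 0.29), and so was the difference of 50% of all features. This direction turned without 1 Gr array, in fits that carry the same replicate split. Without the array labelled Gr control 2, 12 of 38 lay above 0 (median -0.10). Without Gr Vav-Etv2 1, 9 of 38 did (median -0.13). Without Gr control 1 the median was 0.68, and without Gr Vav-Etv2 2 it was 0.65. By limma 0 of the 38 were called in this interaction and 0 had an unadjusted p under 0.05, against 1 (0.00431%) and 905 (3.90%) of all features, so a difference between the cell types in the response to Vav-Etv2 was not shown.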

How the data were processed

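RNA of 8 samples (4 groups of 2) was labelled with Cy3 and hybridised to Agilent 1-colour arrays. Per the submitters' processing notes the arrays were read with Agilent Feature Extraction 10.7, and the file headers give version 10.7.3.1. The deposited files hold each spot's processed signal, an intensity from which background was already taken off per the file headers, and the deposited marks for spots above background, saturated or outlying, which are values of another kind. The deposited value table holds log2 values that, set against the array files, matched log2 signal minus the 75th percentile, centred per probe within each cell type, within 0.05 for 99.9% of values. It cannot compare cell types, and it served as an alternative.

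Here log2 signal minus the array's 75th percentile was computed over 55661 non-control probes. Repeat spots were averaged, the probe with the highest mean stood for a gene, and features well above background on at least 2 of 8 arrays were kept (23227). One limma model (3.58.1, R 4.3.3) with the 4 group means was fitted to all 8 arrays (residual degrees of freedom 4, prior 2.77), with Benjamini-Hochberg adjustment over all features. On simulated data only the KSL minus Gr comparison was tested, with planted changes larger than those of the listed genes called. The Vav-Etv2 comparisons, the interaction and the split between the Gr replicates were not simulated. The number of arrays limits the precision. Values per array were printed for the genes called, for up to 3 genes a role with the largest KSL minus Gr difference and the gene with the smallest, and for the 3 highest and 3 lowest Vav-Etv2 differences per cell type; of other pathway lists the 2 highest and 2 lowest were named, except 1 that is not reported here. The members and all lists were chosen with earlier results of these data known. Promoter sequences are RefSeq's on GRCm38.p6, and probe positions are those of the files, on mm9. Alternatives covered background correction, scaling, the filter, probes, samples fitted, a replicate block and leaving out each array.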

Additional observations from a re-analysis of the deposited data

How the results depend on the processing

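Of the 38 genes, 7 were called between KSL and Gr cells. That number was 3 with median scaling, against 19% of all features called higher and 30.7% lower. With no filter it was 4, where 4857 of 36077 features were called higher and 5216 lower. With the replicate number as a block it was 21, where 7130 of 23227 features were called higher and 7831 lower. It was 0 within controls only and 0 within Vav-Etv2 cells only, where fewer arrays were compared (34.7% and 24.2% of all features called). It ranged from 0 to 10 when 1 array was left out. The range over all features in those fits is given below. The number called was 21 without both Gr replicate 1 arrays, against 23.1% of all features called higher and 23.6% lower. It was 13 without both Gr replicate 2 arrays, against 30.6% higher and 33% lower. Both of these fits were chosen after seeing the data. Ccnb2 and Cenpa lost their calls without the replicate 2 arrays (limma adjusted p = 0.0638 and 0.0761). Same-numbered samples had deviations that correlated at 0.0679 in KSL and 0.658 in Gr cells; with 2 replicates and labels that do not pair them, the block is no paired design. In the Vav-Etv2 comparisons and the interaction, 0 of the 38 were called under any alternative run.

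Counts over all features were 11775 between cell types (5632 within Vav-Etv2 cells only, 8038 to 12889 without 1 array). The KSL count of 4 was 17 with normexp, 27 with median scaling, 50 with quantile normalisation, 0 with the filter on all 8 arrays and 0 to 37 without 1 array. The Gr count of 2 was 0 with normexp, 1 with no filter, 0 with the filter on all 8 arrays, 1 with each probe by itself, 1 with the block, 0 with Gr arrays only and 0 to 2 without 1 array. The interaction count of 1 was 6 with normexp, 2 with median scaling, 5 with quantile normalisation, 0 with no filter, with the filter on all 8 arrays and with the block, and 0 to 0 without 1 array. The cause was not tested.

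Of the 12 Vav-Etv2 differences followed gene by gene, leaving out 1 array turned the sign of 8, none called; over all 38 genes the report gives the counts above 0. In KSL cells E2f8 ranged from -0.36 to 0.22 and Kif20a from -0.14 to 0.03. In Gr cells the ranges were -0.01 to 0.76 for Kif11, -0.39 to 1.04 for Aurkb, -0.15 to 0.56 for Cenpf, -0.82 to 0.44 for Bub1, -0.66 to 0.36 for Cenpe and -0.95 to 0.65 for Gmnn. Leaving out a Gr array sets unequal mixes of the replicate numbers against each other, so these ranges carry the replicate split too. Depth is limited by 2 arrays a group and by the spread between replicates, whose differences over all features had SDs of 0.556 in KSL controls and 1.05 in Gr controls.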
